A study of Mus musculus with 12 samples.

Results

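The H3K27me3 peaks that were called in both replicates of cortical non-CINs and in neither matched CIN list made up 1286 regions, called non-CIN-only regions here. They were chosen on the H3K27me3 peak calls themselves. Within a list, neighbouring peaks were joined across gaps of up to 500 bp, joined non-CIN peaks with no overlap in the CIN list of the same replicate number were kept, and the stretches shared by replicates 1 and 2 were taken. High-confidence (HC) regions, found in replicates 1 and 2 of one population, numbered 17550 for non-CINs, so that 7.33% of them were non-CIN-only. By the same rule 710 of the 14915 HC regions of CINs, or 4.76%, were CIN-only, and 11563 regions were common to all 4 lists. Over the 4 lists together, merged H3K27me3 peaks covered 59693 separate places. Because the rule used these calls, the H3K27me3 values of the regions are descriptions and were not tested.

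CINs (cortical interneurons) were the GFP-positive cells, and non-CINs the GFP-negative cells, sorted from the cerebral cortex of *Gad67-GFP* heterozygote pups at postnatal day 2 (P2) and used for native ChIP-seq of H3K27ac and H3K27me3. The mice had a mixed genetic background with outcrossing to CD-1, both populations carried the same allele, each sample pooled the tissue of several litters, and each of the 2 replicates had its own input. In these mice GFP marks GABAergic cells, so the non-CINs were every other cell of the tissue, with glutamatergic projection neurons and glia among them, and not 1 cell type. The H3K27me3 lists held 36662 to 45081 peaks, more in the non-CINs than in the CINs of the same replicate number, and the H3K27ac lists 46040 to 62505. H3K27ac peaks in the windows of 8 CIN marker genes, from 5 kb upstream to the gene end, covered 65.8 and 54.8 kb in the CIN libraries and 15.8 and 17.0 kb in the non-CIN libraries, and 6 of the 8 had more in both CIN libraries, although no H3K27ac peak was listed at *Lhx6*. The 3 astrocyte markers were higher in both non-CIN libraries, with 63.8 and 66.1 kb against 42.5 and 40.1 kb in CINs. The 7 pallial neuron markers did not separate the populations as a list (14 and 14.8 kb in non-CINs, 15.8 and 11.6 kb in CINs), and *Neurod2* and *Slc17a7* had no H3K27ac peak in any list. The 4 oligodendrocyte lineage markers overlapped too (12.4 and 14.6 kb in non-CINs, 12 and 14.9 kb in CINs). The 4 microglial markers covered 18.2 and 15.3 kb in non-CINs and 12.9 and 11.6 kb in CINs, and the 4 markers of endothelial cells and pericytes 19.4 and 16.2 kb against 15.8 and 10.5 kb, both longer in the non-CIN libraries as sums. By gene, 2 of the 4 microglial and 1 of the 4 endothelial and pericyte markers were higher in both non-CIN libraries. *Aif1*, *Cldn5* and *Kdr* had no H3K27ac peak in any list. A share of cells with the mark cannot be told apart from the amount of the mark in each cell.

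H3K27me3 is laid down by Polycomb repressive complex 2 and is found over genes that are kept silent in a given cell, among them many developmental transcription factors whose CpG-rich promoters lie in broad domains of the mark. H3K27ac occupies the same lysine at active promoters and enhancers, so that 1 histone tail cannot carry both, although the 2 marks can be found at the same place in different cells of a population. The comparison asks where the repressive mark is found in non-CINs alone and whether the active mark is found there in CINs.

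The sequences of 3 of the regions of highest rank are shown first, and 5 further regions are shown because an H3K27ac peak overlapped them in both CIN lists and in no non-CIN list. All are read from RefSeq GRCm38 on the plus strand, which has the coordinates of mm10, and capitals mark CG dinucleotides. The first 2 and the fourth to the last lie outside exons and promoters of the annotation, and the third lies at the promoter of the non-coding gene *Gm26559* within *Map1b*.
*Macrod2* intron, chr2:142361164-142361455: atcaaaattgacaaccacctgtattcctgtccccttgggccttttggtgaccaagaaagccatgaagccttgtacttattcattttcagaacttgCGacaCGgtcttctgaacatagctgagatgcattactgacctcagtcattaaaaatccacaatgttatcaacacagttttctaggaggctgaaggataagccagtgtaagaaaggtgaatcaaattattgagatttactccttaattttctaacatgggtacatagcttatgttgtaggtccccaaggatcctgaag
*Cradd* intron, chr10:95251152-95251426: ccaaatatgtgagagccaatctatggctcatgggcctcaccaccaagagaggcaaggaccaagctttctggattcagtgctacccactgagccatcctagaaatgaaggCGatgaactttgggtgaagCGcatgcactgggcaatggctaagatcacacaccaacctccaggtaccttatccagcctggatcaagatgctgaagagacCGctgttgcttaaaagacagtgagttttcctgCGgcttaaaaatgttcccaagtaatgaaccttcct
*Map1b* promoter area, chr13:99515814-99515913: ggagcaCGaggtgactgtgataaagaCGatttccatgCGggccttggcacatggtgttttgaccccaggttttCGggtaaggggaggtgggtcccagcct
*Edil3* intron, chr13:88822704-88822898: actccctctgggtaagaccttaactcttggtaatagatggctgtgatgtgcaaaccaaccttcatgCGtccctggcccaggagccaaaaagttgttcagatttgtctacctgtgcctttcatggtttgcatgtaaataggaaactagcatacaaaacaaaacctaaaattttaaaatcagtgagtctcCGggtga
*Them7* intron, chr2:105333573-105333772: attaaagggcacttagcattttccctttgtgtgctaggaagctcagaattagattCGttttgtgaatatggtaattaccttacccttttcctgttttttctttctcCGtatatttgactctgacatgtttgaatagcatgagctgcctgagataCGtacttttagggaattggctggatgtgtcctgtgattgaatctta
Intergenic, nearest TSS *Sulf2*, chr2:166359910-166360167: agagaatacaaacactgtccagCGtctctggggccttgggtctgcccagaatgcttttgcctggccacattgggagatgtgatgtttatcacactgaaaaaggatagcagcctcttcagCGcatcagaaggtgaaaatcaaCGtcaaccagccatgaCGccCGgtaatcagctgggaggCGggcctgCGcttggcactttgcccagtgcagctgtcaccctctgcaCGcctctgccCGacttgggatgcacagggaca
*Nbea* intron, chr3:56181957-56182156: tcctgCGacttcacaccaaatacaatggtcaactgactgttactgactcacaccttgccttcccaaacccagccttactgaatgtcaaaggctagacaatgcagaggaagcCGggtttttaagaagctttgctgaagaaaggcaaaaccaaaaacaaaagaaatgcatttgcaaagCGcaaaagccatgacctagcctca
*Kif5a* intron, chr10:127262027-127262322: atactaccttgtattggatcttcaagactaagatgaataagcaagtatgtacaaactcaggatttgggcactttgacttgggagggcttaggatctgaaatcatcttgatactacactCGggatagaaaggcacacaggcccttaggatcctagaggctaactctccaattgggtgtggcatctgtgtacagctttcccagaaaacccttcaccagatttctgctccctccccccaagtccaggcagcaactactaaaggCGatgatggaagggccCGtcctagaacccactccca
The *Macrod2* region held 2 CG dinucleotides in 292 bp, at a GC content of 40.1%, and the *Sulf2* region held 9 in 258 bp at 55.8%. The *Map1b* region held 4 in 100 bp at 57.0%.

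The non-CIN-only regions were short and, by the median, of lower rank within their lists than common regions. Their median length was 235 bp (quartiles 163 and 360 bp, range 1 to 1930 bp), against 731 bp for common regions and 273 bp for CIN-only regions, and 277 regions (21.5%) were shorter than 150 bp. They covered 373 kb in all, compared with 22436 kb for the common regions. Fold enrichment, the ratio of ChIP to input signal, was turned into a percentile of its own list, since the depth behind the lists is unknown. A joined peak took the highest fold enrichment of its peaks, and this was ranked among the single peaks of the list. Joined peaks made of several peaks are placed higher by this choice. Its part in the difference between members and common regions was not tested. The median percentile was 35.2 in replicate 1 and 40.9 in replicate 2, against 82.1 and 89.0 for common regions in the same lists. In replicate 1, 19 regions were at percentile 90 or above, and in replicate 2 it was 1, where 4023 and 5337 common regions did. CIN-only regions had median percentiles of 43.5 and 44.0 in the CIN lists.

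**Figure D1:**
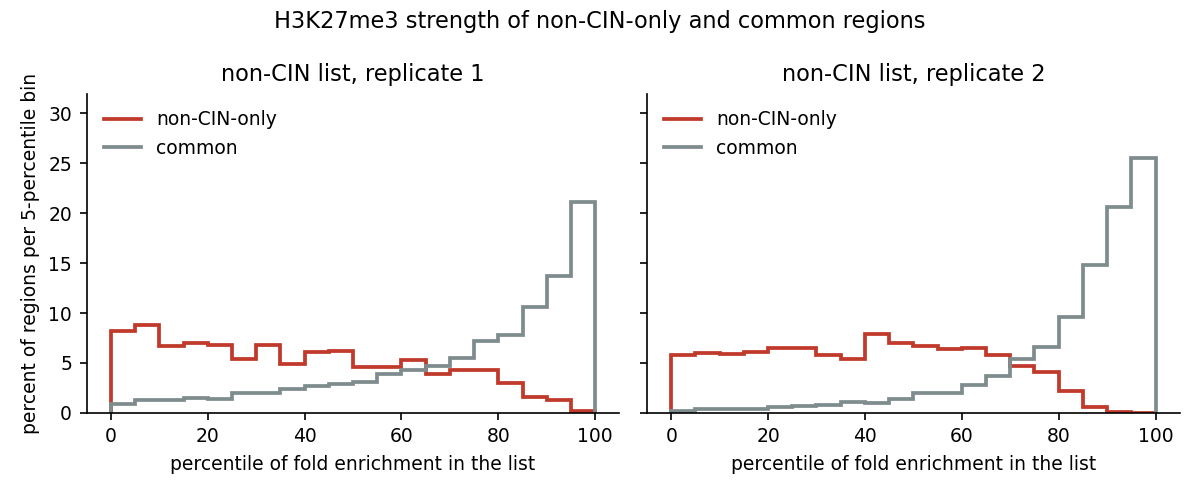
Share of non-CIN-only (red) and common (grey) H3K27me3 regions by percentile of fold enrichment in the non-CIN list of replicate 1 (left) and replicate 2 (right), in bins of 5 percentiles. Non-CIN-only regions were spread widely, with medians of 35.2 and 40.9 and with 33.0% and 36.9% at percentile 50 or above, against 81.7% and 93.1% of common regions. Each region took the highest fold enrichment of its joined peak, which places joined peaks made of several peaks higher.

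The rule has a sharp edge, and many members lay near it. The nearest CIN peak of the same replicate number was at a median of 2.00 kb from a member's source peak, taking the closer replicate, and 374 members (29.1%) had one within 1 kb. The 3 closest adjoined a CIN peak or lay 2 and 4 bp from it, and 53 lay within 100 bp. On the other side of the edge, the 3 HC regions left out with the smallest overlap shared 2, 7 and 9 bp with a CIN peak, and 71 of the 16264 left out shared 100 bp or less. For CIN-only regions the median gap to a non-CIN peak was 3.25 kb.

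Few population-only peaks of a single replicate were found again in the other. Of the merged peaks of non-CIN replicate 1, 17174 (47.7%) had no CIN overlap, and 1284 of these (7.48%) met such a peak in replicate 2. Of the 11836 in replicate 2 (38.9%), 1253 (10.6%) met one in replicate 1. Most of the others, 11627 and 9536, met no non-CIN peak at all in the other replicate. The recurrence was about the same for CIN-only peaks (6.37% and 10.3%). Source peaks of the members also rarely met a CIN peak of the other replicate number, 42 of 1284 in replicate 1 and 54 of 1253 in replicate 2. The larger number of non-CIN-only than CIN-only regions went with the longer non-CIN lists. With each list limited to its 30000 peaks of highest fold enrichment, 654 non-CIN-only and 725 CIN-only regions were found.

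Non-CIN-only regions lay mostly between genes and in introns. Of the 1286, 677 (52.6%, 95% Wilson interval 49.9 to 55.4, counting error only) were intergenic by their centre, 533 (41.4%) intronic, 34 (2.64%) exonic and 42 (3.27%, 2.43 to 4.39) at promoters, which here reach from 1 kb before a transcription start site (TSS) to 100 bp after it. The promoter share was 7.32% (5.63 to 9.48) for CIN-only regions and 9.28% (8.76 to 9.82) for common regions, and promoters so defined make up 2.47% of the genome. The intronic share was nearly the same in the 3 sets (41.4%, 42.3% and 42.3%), so the difference was between promoters and exons on one side and intergenic sequence on the other.

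Of the 42 promoter regions, 20 were at promoters of protein-coding transcripts and the others at those of non-coding transcripts, and 10 of the 42 lay under an H3K27ac peak of at least 1 list. The promoter region of highest rank was 102 bp from an internal TSS of *Nrxn2*, which encodes a presynaptic adhesion molecule. The annotated start of this gene lies upstream, at chr19:6418731. The region was 453 bp long (chr19:6427369-6427821) and stood at percentiles 88.5 and 79.5 of the non-CIN lists, with no H3K27ac peak over it in any list. Across the whole *Nrxn2* window H3K27me3 peaks covered 2.36 and 3.20 kb in non-CINs and 0 and 1.52 kb in CINs, whereas H3K27ac covered 15.9 and 13.3 kb in non-CINs and 26.3 and 17.1 kb in CINs. H3K27ac did not overlap between the populations at *Nrxn2*, and was longer in CINs, while the order of H3K27me3 was favoured by the choice of the region. A promoter region at *Slco5a1*, a gene of the organic anion transporter family, was 666 bp long and held 31 CG dinucleotides. It lay under H3K27ac peaks at percentiles 95.4 and 87.2 in the CIN lists, and under 1 at percentile 49.2 in non-CIN replicate 1 alone. The region at *Tmod2*, which encodes a neuronal tropomodulin that caps actin filaments, held 1 CG dinucleotide in 204 bp and had no H3K27ac.

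In sequence the regions were near the other H3K27me3 calls in GC content and lower in the ratio of observed to expected CpG. Among the 1208 members of 50 bp or more, median GC content was 45.6%, against 46.1% in common and 44.4% in CIN-only regions and 41.7% over the mm10 chromosomes. The median ratio of observed to expected CpG was 0.176, against 0.250 in common, 0.217 in CIN-only and 0.222 in all HC regions of non-CINs. A ratio of 0.6 or more, the range of CpG islands, was found in 37 members (3.06%), in 8.32% of CIN-only, in 4.38% of common and in 3.14% of all HC regions of non-CINs. Repeats, as marked in the reference, filled at least 50% of the length of 98 members (8.11%), compared with 4.85% of common, 5.94% of CIN-only and 5.55% of all HC regions of non-CINs. The median repeat share was 10.9% in members and 13.1% in common regions. Members were shorter than common regions, and the part of length in the CpG ratios and repeat shares was not tested. Within 200 bp at the centre, the DLX core TAATTA was found on either strand in 68 members (5.29%, 4.19 to 6.65), and in 5.00% of all HC regions of non-CINs. The SOX core CTTTGT was found in 17.3% against 16.3%, the MEIS core CTGTCA in 15.3% against 13.7%, the E-box CAGCTG in 8.86% against 9.23% and the proneural E-box CATATG in 3.73% against 4.39%. The NFI core TTGGC (33.4%, 30.8 to 36.0, against 30.3%) and the RUNX core TGTGGT (16.6%, 14.7 to 18.8, against 13.7%) were found in CIN-only regions at 32.8% and 13.9%. These matches are letters in a window and not sites of binding. Of the sequences above, the *Them7* region held the DLX, SOX and NFI cores, and the *Sulf2* region held the MEIS core, the first E-box and the NFI core.

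The regions lay closer to common H3K27me3 regions than CIN-only regions did. The median distance to the nearest common region was 17.9 kb (quartiles 5.02 and 89.3 kb), against 50.7 kb (quartiles 7.72 and 273 kb) for CIN-only regions. In all 319 members (24.8%) were within 5 kb of a common region, 660 (51.3%) within 20 kb and 985 (76.6%) within 100 kb, and the CIN-only shares were 18.9%, 37.7% and 58.9%. In single replicates the medians were 36.7 and 26 kb for non-CIN-only peaks of replicates 1 and 2 and 52.8 and 32.4 kb for the corresponding CIN-only peaks. Non-CIN-only peaks were the nearer in each replicate number, although the values of the 2 kinds of peak overlapped across replicates. The medians moved with the settings. They were 57.1 kb for non-CIN-only and 82.0 kb for CIN-only regions at −log10 q of at least 4, 9.64 and 25.4 kb without the replicate block, 10.3 and 26.8 kb at a merging gap of 0 bp, 29.5 and 83.3 kb at 1000 bp, 149 and 320 kb to common regions of 2000 bp or more, and 19.8 and 55 kb with the 30000 strongest peaks of each list. The CIN-only values under these settings were computed after seeing the data. Since common regions come from the same calls as the rule, these distances were not tested. A common region lay within 20 kb on both sides of 143 members (11.1%) and on 1 side of 517 (40.2%). The common region nearest to these 660 had a median length of 602 bp, below the median of all common regions. Members were seldom clustered, as 290 (22.6%) had another within 10 kb and the largest chain held 4, compared with 30.8% and a chain of 9 for CIN-only regions. By chromosome, the members made up between 5.03% (chromosome 3) and 11.9% (chromosome 16) of the HC regions of non-CINs.

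**Figure D2:**
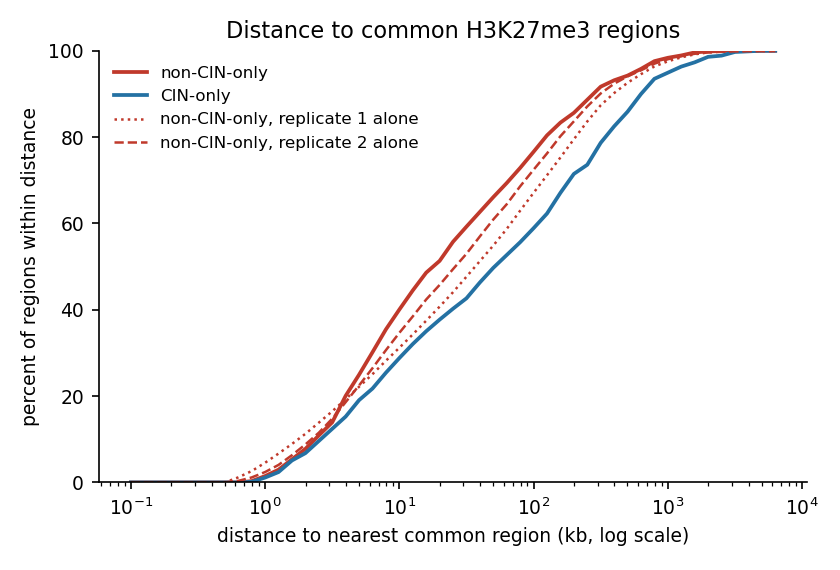
Cumulative share of regions by distance to the nearest common H3K27me3 region, in kb on a log scale, for non-CIN-only regions, CIN-only regions and the non-CIN-only peaks of each replicate alone. Of the non-CIN-only regions 51.3% were within 20 kb, against 37.7% of the CIN-only regions.

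H3K27ac, which the rule did not use, was called over more of the regions in CINs than in non-CINs. An H3K27ac peak overlapped 60 members in CIN replicate 1 (4.67%, 95% Wilson interval 3.64 to 5.96) and 36 in CIN replicate 2 (2.80%, 2.03 to 3.85), compared with 26 (2.02%, 1.38 to 2.95) and 18 (1.40%, 0.887 to 2.20) in the non-CIN replicates. These intervals carry counting error only, treat members as independent although some share an H3K27ac peak, and do not measure the spread between libraries. Both CIN libraries were above both non-CIN libraries, by 2.31 times in replicate 1 and 2.00 times in replicate 2. The mean difference was 26 members, and the two-sided exact permutation test over the 4 libraries gave p = 0.333, the smallest value that 2 against 2 libraries allow. Over all HC regions of non-CINs the ratios were 1.59 and 1.49, and there the CIN and non-CIN libraries overlapped. Over CIN-only regions the order within replicates was opposite, with 81 and 74 regions in the CIN libraries and 104 and 83 in the non-CIN libraries. H3K27ac over the members was uncommon in every library: 62 (4.82%) lay under a peak of any list, against 16.9% of CIN-only and 10.8% of common regions. Since longer regions meet more peaks, the centre base was also used, an alternative chosen after seeing the data. The H3K27ac shares at the centre of members were then 3.42% and 2.26% in the CIN libraries, against 1.63% and 1.09% in non-CINs, and those of common regions were 3.96% and 2.27% against 2.33% and 1.85%. The ratios of CINs to non-CINs at the centre were 2.10 and 2.07 for members and 1.70 and 1.23 for common regions. The CIN and non-CIN H3K27ac libraries used the same inputs as the H3K27me3 libraries of their population, and the part of the inputs in this difference was not tested.

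**Figure D3:**
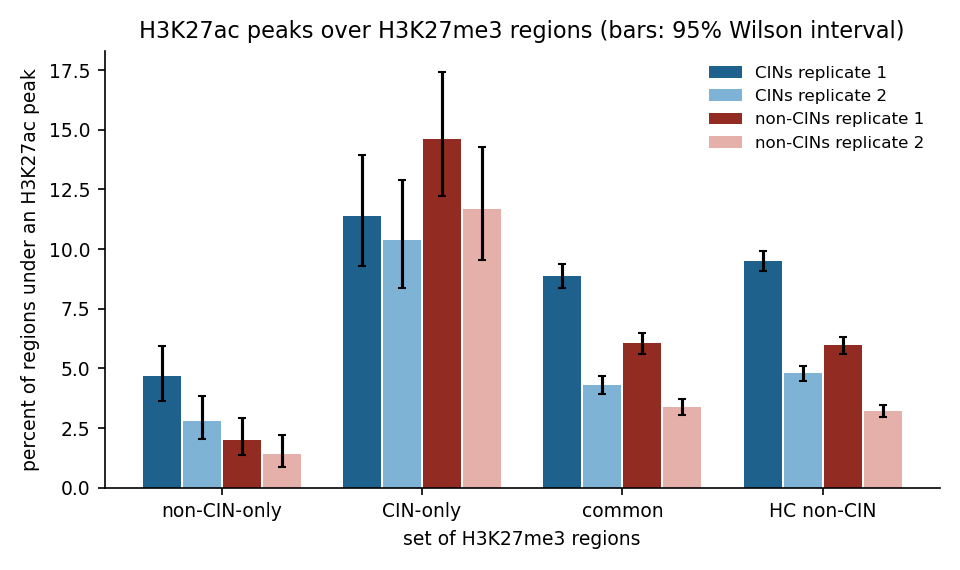
Percent of regions under an H3K27ac peak in each of the 4 H3K27ac libraries, for non-CIN-only, CIN-only, common and all HC non-CIN H3K27me3 regions. Over non-CIN-only regions the CIN libraries (4.67% and 2.80%) were above the non-CIN libraries (2.02% and 1.40%), and over CIN-only regions they were not.

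H3K27ac peaks in both CIN lists and in neither non-CIN list overlapped 14 members (1.09%), and the reverse was found at 1 member, an intergenic region 8474 bp from the TSS of *Ppp1r1b*. These shares were near those over all HC regions of non-CINs, 1.25% and 0.154%, so they do not set the members apart from other H3K27me3 regions. A further 16 members (1.24%) lay under H3K27ac in all 4 lists, against 2.27% of all HC regions of non-CINs, 2.24% of common and 7.89% of CIN-only regions. Of the 14, the one under the strongest H3K27ac was the 195-bp *Edil3* region printed above, 1062 bp from the TSS of this gene, which encodes a secreted integrin ligand. Its H3K27ac peaks stood at percentiles 98.7 and 98.3 of the CIN lists, while its H3K27me3 stood at percentiles 16.8 and 66.5 of the non-CIN lists. It was 920235 bp from the nearest common H3K27me3 region. A 419-bp region on chromosome 12 (chr12:51003354-51003772), in an intron of a non-coding gene and outside the window of any protein-coding gene, had H3K27ac at percentiles 97.9 and 90.2 and H3K27me3 at percentiles 72.9 and 56.8, and lay 112874 bp from a common region. A second member, 136 bp long, lay at a promoter 1 kb further on, with no H3K27ac.

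Several of the 14 lay in introns near a TSS. *Kif5a*, the neuronal kinesin heavy chain, held one 758 bp from its TSS (H3K27ac percentiles 88.2 and 61.5), and *Nbea*, a scaffold protein of membrane traffic, held one at 1545 bp (68.3 and 72.5). *Slc8a3*, a sodium-calcium exchanger, held one at 456 bp (56.0 and 42.2), *Arid3a*, a DNA-binding protein, one at 354 bp (65.5 and 52.7) and *Sik1*, a salt-inducible kinase, one at 1076 bp (21.4 and 23.4). The marks overlapped in part at some of these places. The H3K27ac peaks covered 68 bp of the 302-bp *Arid3a* region in both CIN lists and 216 and 125 bp of the 1048-bp *Sik1* region, but all 200 bp of the *Nbea* region in CIN replicate 1 and 61 bp in replicate 2. They covered 97 and 87 bp of the 296-bp *Kif5a* region, and 200 and 72 bp of the 200-bp *Them7* region. The *Sulf2* region, 204247 bp from the TSS of this heparan sulfate sulfatase, was covered over all 258 bp in both (percentiles 86.6 and 73.0). Others had *Foxo6*, *Ttll11*, *Abcd4* and *Kif2a* (509112 bp away) as the gene of the nearest TSS, or lay in *Them7* and at the promoter of *Mir1983*. Among the 8 members of highest H3K27me3 rank, 7 had no H3K27ac peak in any list, as had 1224 of all 1286 members. They lay in *Macrod2* (percentiles 84.8 and 85.9), *Nrxn2*, the locus *Gm20388*, *Cradd*, *Cacnb4*, an overlap of *Hipk2* and *Tbxas1*, and 109643 bp from the TSS of *D1Ertd622e*. The eighth, the *Map1b* region, had H3K27ac in both CIN lists (percentiles 61.3 and 60.8) and in non-CIN replicate 1 (35.3). *Map1b* encodes a microtubule-associated protein of growing axons.

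The 16 members under H3K27ac of all 4 lists included places of very high acetylation. Of these, 3 lay within 2 kb of each other, 7683 to 9200 bp from the TSS of *Pou3f3*, a POU-domain transcription factor of cortical neurons, under 1 H3K27ac peak at percentiles 99.4 and 99.5 (CINs) or 99.3 and 99.9 (non-CINs). The H3K27me3 percentiles of the first of them were 49.6 and 15.6 in the non-CIN lists. Whether the marks came from the same cells was not tested.

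Among windows of protein-coding genes with a member, longer H3K27ac in both CIN libraries was more frequent than the reverse, although the summed lengths overlapped. In all 584 members (45.4%) lay in such windows, of 458 of the 21938 genes (2.09%). For each window the length under H3K27ac peaks was compared between libraries. Of the 414 genes with a member and any H3K27ac, 155 (37.4%) had more in both CIN libraries than in both non-CIN libraries, and 34 (8.21%) the reverse. In the others neither order held. Over all 14672 protein-coding genes with H3K27ac the shares were balanced, at 18.1% and 18%. The 256 genes with a CIN-only H3K27me3 region had the opposite imbalance, with 14.5% higher in both CIN and 32.8% in both non-CIN libraries. Genes with members were long, with a median of 93.0 kb against 17.4 kb for all, so the shares were also taken by length. In genes of 20 to 100 kb, 38.9% of those with a member were higher in both CIN libraries and 8.33% in both non-CIN libraries, against 16.8% and 19.5% of genes with neither kind of region. In genes of 300 kb or more the shares were 33.3% and 3.92%, against 24.1% and 19%. The imbalance was smallest in genes under 20 kb (28.8% and 15.4%, against 17.8% and 15.8%), where 52 genes had a member and an H3K27ac peak. It was present with a common region in the window (38.2% and 7.57%) and without one (36.2% and 9.20%), while genes with a common region and no member had 21.5% and 14.4%. Genes are not independent replicates and each order rests on 2 libraries a side, so no p value was given to these counts. The H3K27me3 and H3K27ac lists of a population also share their inputs, whose part in the imbalance was not tested. Summed over the 414 genes, H3K27ac covered 2921 and 1768 kb in CINs and 1990 and 1567 kb in non-CINs, with ratios within replicates of 1.47 and 1.13. Over all protein-coding genes these ratios were 1.08 and 0.914. The sums overlapped between the populations when the replicate numbers were left out (two-sided exact permutation test over libraries, p = 0.5). The H3K27ac lists of replicate 1 held more peaks than those of replicate 2.

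**Figure D4:**
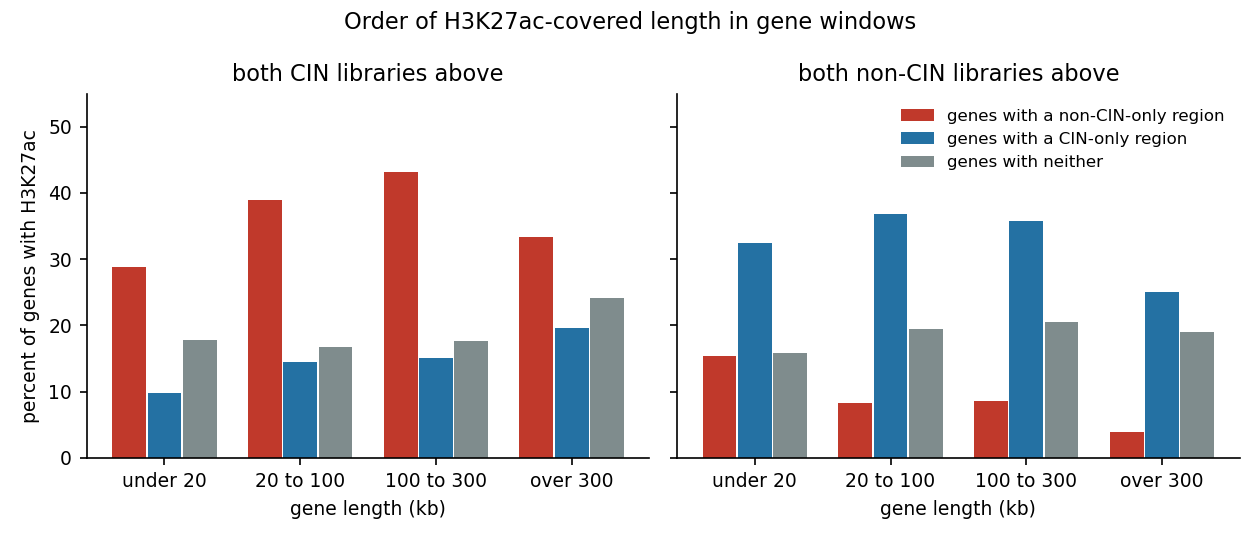
Percent of protein-coding genes with H3K27ac in which both CIN libraries had a longer H3K27ac-covered length than both non-CIN libraries (left) or the reverse (right), by gene length in kb. Genes with a non-CIN-only H3K27me3 region (red) were above genes with neither kind of region (grey) on the left in all 4 length classes, and genes with a CIN-only region (blue) were above both on the right.

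H3K27ac at the promoters of the 458 genes was called at 64.8% and 50.4% in CINs and at 58.3% and 44.3% in non-CINs, and at all protein-coding genes at 54.2%, 49.8%, 53.1% and 48.8%. For genes with a common region the shares were 45.0%, 35.2%, 41.8% and 32.4%. Of the genes with members, 267 (58.3%) also held a common H3K27me3 region, against 17.7% of all genes, and 30 (6.55%) held a CIN-only region, against 1.38% of all genes.

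Members recurred in a small number of very long genes. At least 3 were found in 39 genes (0.178%), whose median length was 439 kb. Members per Mb of gene window differed little with length, from 0.471 in genes of 20 to 100 kb to 0.611 in those of 300 kb or more, while the share of genes with a member rose from 0.628% under 20 kb to 18.0% at 300 kb or more. *Zfhx3*, a zinc finger and homeobox transcription factor of neuronal differentiation, held the most with 8. Its window of over 1 Mb was under H3K27me3 peaks over 116 and 152 kb in non-CINs and 91.0 and 116 kb in CINs, with 32 common regions. The lower non-CIN and the higher CIN value were nearly equal there, and the locus was marked over a long stretch in both populations. *Thsd4*, which encodes a protein of extracellular microfibrils, held 7, with 49.6 and 84.0 kb of H3K27me3 in non-CINs and 21.3 and 43.9 kb in CINs. In *Thsd4* the H3K27ac lengths did not separate the populations (13.8 and 8.85 kb against 18.4 and 8.57 kb).

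Of the genes with 6 members, *Ptprn2*, a receptor-type phosphatase of secretory vesicles, had 44.8 and 56.2 kb of H3K27me3 in non-CINs and 25.9 and 27 kb in CINs. Its H3K27ac was the other way around, with 13.5 and 11.5 kb in non-CINs and 30.9 and 16.8 kb in CINs. *Tenm4*, a teneurin adhesion molecule, had 69.3 and 119 kb of H3K27me3 in non-CINs and 26.3 and 92.3 kb in CINs, which overlapped between the populations. The H3K27ac of *Tenm4* did not overlap, with 8.48 and 6.55 kb in non-CINs and 29.5 and 13.3 kb in CINs. *Erc2*, a protein of the presynaptic active zone, had 59.8 and 84.4 kb of H3K27me3 in non-CINs and 31.0 and 47.9 kb in CINs. *Trpm3*, a cation channel, had 60.5 and 79.0 kb in non-CINs and 44.8 and 55.2 kb in CINs, while its H3K27ac lay between 10.2 and 13.9 kb in all 4 libraries.

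Among the genes with 5 members, *Asic2*, a proton-gated sodium channel, had H3K27me3 over 50.1 and 65.6 kb in non-CINs and 19.1 and 27.2 kb in CINs, and H3K27ac over 5.34 and 4.93 kb in non-CINs and 22.1 and 10.7 kb in CINs. *Galnt10*, a glycosyltransferase, had 24.9 and 41.7 kb of H3K27me3 in non-CINs and 10.3 and 21.7 kb in CINs. *Auts2*, a regulator of neuronal development, had 27.3 and 37.8 kb against 11.2 and 26.7 kb. The locus *Gm20388* is annotated over more than 4 Mb with many other genes inside, so its 5 members cannot be given to 1 gene. Of all 39 genes, 28 had more H3K27me3 in both non-CIN libraries and none in both CIN libraries, where the shares over all 8941 genes with H3K27me3 were 11.1% and 7.34%. The rule used these H3K27me3 calls, and nothing is read from this count. For H3K27ac 12 of the 39 had more in both CIN libraries and 1, *Jazf1*, in both non-CIN libraries, where the shares over all genes were 18.1% and 18%. The 39 were long, and genes of 300 kb or more with a member had shares of 33.3% and 3.92%. Those of this length with neither kind of region had 24.1% and 19%. Besides *Ptprn2*, *Tenm4*, *Asic2* and *Galnt10*, the 12 were *Macrod2*, *Robo1*, *Tenm2*, *Nav3*, *Sorbs2*, *Slc6a6*, *Ets1* and *Klhl3*. *Nav3*, a neuron navigator protein, had 25.9 and 18.5 kb of H3K27ac in CINs and 6.38 and 6.48 kb in non-CINs. Its H3K27me3 covered 0.392 and 2.32 kb in CINs and 3.99 and 7.13 kb in non-CINs.

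**Figure D5:**
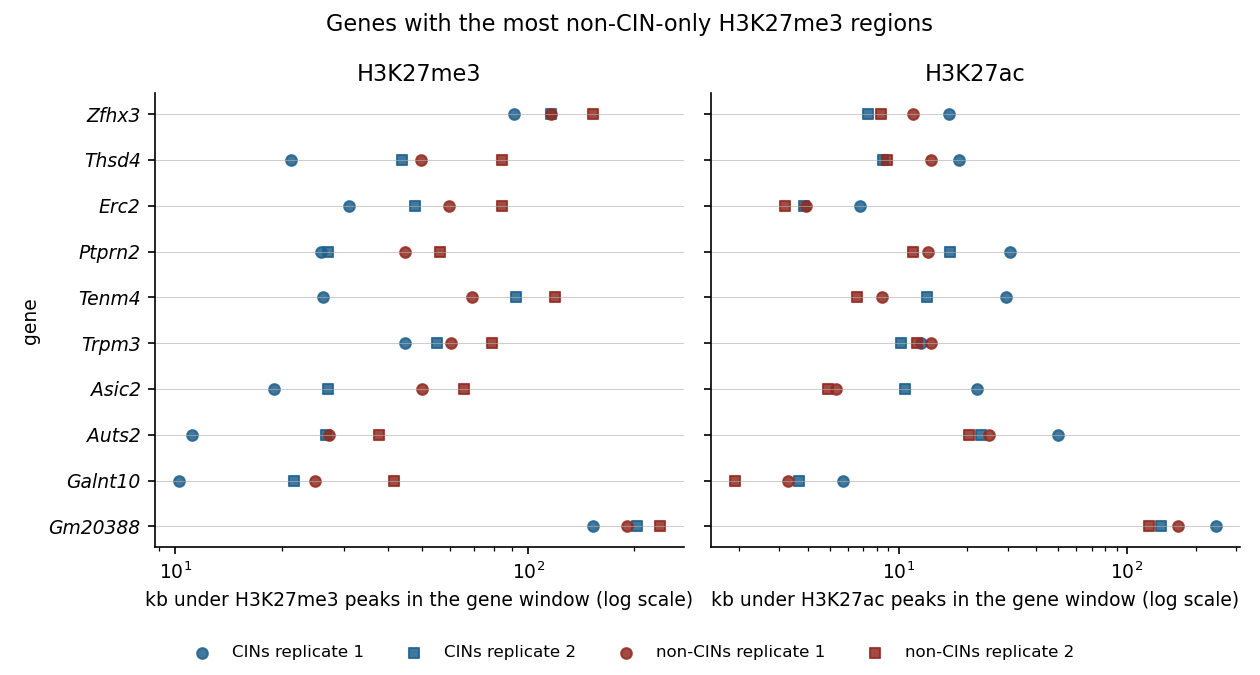
Length under H3K27me3 (left) and H3K27ac (right) peaks, in kb on a log scale, in the windows of the 10 genes with the most non-CIN-only regions, for each library (circles replicate 1, squares replicate 2, blue CINs, red non-CINs). H3K27ac at *Asic2* and *Ptprn2* did not overlap between the populations, the order of H3K27me3 was favoured by the choice of regions, and *Trpm3* had similar H3K27ac in all libraries.

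By gene class, common regions marked most developmental transcription factor genes and non-CIN-only regions a few of them. Of 189 homeobox and paired-domain transcription factor genes 174 (92.1%) held a common H3K27me3 region, but 6 (3.17%) held a member: *Zfhx3* with 8, *Tshz2* with 3, and *Lmx1a*, *Pax5*, *Pax7* and *Pbx3* with 1 each. Of 133 SOX, FOX, TBX, GATA and bHLH genes 94 held a common region and 5 (3.76%) a member, *Foxo6*, *Foxp2*, *Gata4* and *Tbx5* among them. These genes are short, with median lengths of 7.36 and 5.06 kb, and the share with a member was 2.09% over all genes and 0.628% over those under 20 kb. Among 52 genes of the GABAergic lineage, *Zfhx3* and *Ebf1* held members, and among 41 pallial glutamatergic genes, *Bcl11b* and *Foxp2* did. No member lay in the windows of the 35 glial or the 30 microglial, endothelial and pericyte genes, or of the cell type markers described above, and lists this short can hold none at the share over all genes. Members were found at 2 of 93 secreted ligand genes (2.15%), 1 of 83 ribosomal protein genes and 1 of 1473 olfactory, vomeronasal and taste receptor genes (0.0679%).

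Members were also found at channels, receptors and adhesion molecules. Of 214 axon guidance and cell adhesion genes 17 (7.94%) held a member, and of 160 sodium, potassium and calcium channel genes 10 (6.25%). Of 127 neurotransmitter receptor genes, matched by symbol and so with *Grina* among them, 7 did (5.51%). Median gene lengths were 110 kb for the adhesion list, 45.6 kb for the channels and 26.9 kb for the receptors. Of all genes, 6.13% of those of 100 to 300 kb and 2.14% of those of 20 to 100 kb held a member. The guidance receptor *Robo1* held 4, with H3K27me3 over 54.9 and 92.6 kb in non-CINs and 34.2 and 58.9 kb in CINs, which overlapped. Its H3K27ac covered 5.73 and 4.5 kb in non-CINs and 11.3 and 6.03 kb in CINs. The ephrin receptor genes *Ephb1* and *Ephb2* held 3 each, and at *Ephb1* H3K27me3 covered 55.4 and 63.8 kb in non-CINs and 28.7 and 38.7 kb in CINs. The guidance ligand *Slit3* and the adhesion molecule *Ntm* held 2 each. *Ntm* also held 2 CIN-only regions, and its H3K27me3 overlapped between populations (21.6 and 35.7 kb in non-CINs, 28.3 and 36.6 kb in CINs). Of the receptors, *Gabbr2*, a subunit of the GABA-B receptor, held 3, with 36.6 and 41.1 kb of H3K27me3 in non-CINs and 25.2 and 22.4 kb in CINs, and similar H3K27ac in all libraries (11.9 and 10.6 kb, 11.4 and 8.25 kb). *Grik3*, a kainate receptor subunit, held 2, with 38.8 and 54.5 kb of H3K27me3 in non-CINs and 20.8 and 26.4 kb in CINs. At *Grik3* H3K27ac covered 5.63 and 5.58 kb in non-CINs and 15.2 and 8.92 kb in CINs, so that H3K27ac did not overlap between the populations. The choice of regions favoured the order of H3K27me3.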

How the data were processed

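Broad peak lists of 8 ChIP samples were analysed, and the 4 inputs entered only through peak calling. Alignment by the authors was to mm10 (BWA 0.7.15), with a mapping quality filter of 30, and they called broad peaks with MACS2 (version 2.2.7 in the submitters' processing notes) for each replicate against its input at a cutoff of 0.01. The deposited values are a score and −log10 p and −log10 q values, and the fold enrichment is a ratio computed by the authors. None is a read count, so the number of reads was not used here and the absence of a peak means only that none was called.

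Lists were paired by the replicate numbers of the labels, which describe independent replicate experiments. Across 59693 places, the deviations of same-numbered lists correlated (0.344 by presence of a peak). The regions and gene lists were chosen with earlier results of these data known. Named were the 8 members of highest lower percentile, those under H3K27ac of both CIN lists alone, the 10 genes with most members, and genes of the lists with a member at the promoter or several members. Other names were chosen after their values were seen. Genes came from GENCODE vM21 and sequences from RefSeq GRCm38. Scripts ran on Python 3.11.15 (SciPy 1.17.1, NumPy 2.4.6, matplotlib 3.10.9 and pysam 0.24.0). Interval operations were tested on simulated data against bedtools. Alternatives were other merging gaps, overlaps, thresholds, pairings, promoters and single replicates. Some genes are not reported here.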

Additional observations from a re-analysis of the deposited data

Results flagged for a closer look

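H3K27ac over the H3K27me3 regions differed between CINs and non-CINs in opposite directions for the 2 kinds of region. Over non-CIN-only regions the CIN libraries had on average 26 more regions under H3K27ac than the non-CIN libraries, and CIN was above non-CIN in both replicates. This direction was not particular to them, since CIN was above non-CIN in both replicates also over common regions (1.46 and 1.27 times) and over all HC regions of non-CINs (1.59 and 1.49 times). Over CIN-only regions the difference was -16, and CIN was below non-CIN in both replicates. With H3K27ac peaks within 5 kb of CIN-only regions counted, CIN was above non-CIN in replicate 1 (255 against 224) and about level in replicate 2 (211 against 212). The two-sided exact permutation test over libraries gave p = 0.333 for each kind of region, the smallest value that 2 against 2 libraries allow. The difference between the effects over the 2 kinds of region was not tested.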

How the results depend on the processing

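The number of members depended on the calls. It was 2008 with a merging gap of 0 bp, 654 with the 30000 strongest peaks of each list, 406 with a reciprocal overlap of 50%, and 11836 to 17174 with a single replicate. Without the replicate block it was 2223, and with crossed pairing 1680. With −log10 q of at least 4 there were 1097 regions, which overlapped 137 (10.7%) of the 1286 members. The share of members overlapped was 31.7% with the strongest peaks and 31.6% with reciprocal overlap, 73.7% at a merging gap of 1000 bp, 92.6% with crossed pairing, 99.7% at a merging gap of 0 bp and, by construction, 100% without the replicate block.

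The promoter share of 3.27% became 12.3% within 2000 bp of a TSS and 1.56% with TSSs of protein-coding transcripts alone, and the intergenic share became 49.8% in the first case. The median distance to a common region was 10.3 kb at a merging gap of 0 bp, 29.5 kb at 1000 bp, 57.1 kb at −log10 q of at least 4, 9.64 kb without the replicate block, 149 kb to common regions of 2000 bp or more, and 26 to 36.7 kb with a single replicate. Genes with 3 or more members numbered 68 and 21 at merging gaps of 0 and 1000 bp, 12 with the strongest peaks, 3 with reciprocal overlap, 75 without the replicate block, 25 with no CIN peak within 1000 bp, and 490 to 694 with a single replicate. The 14 members with H3K27ac in CINs alone became 7 at −log10 q of at least 4, 4 with the strongest peaks, 5 with reciprocal overlap, 27 without the replicate block, 9 where H3K27ac covered 50% or the centre, 39 within 1000 bp, and 99 to 105 with a single replicate. The direction of the H3K27ac difference was the same in all 15 alternatives. The cause of these shifts was not tested. Depth is unknown, and the smallest p that 2 libraries a side allow is 0.333.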
